A study of Mus musculus with 12 samples.

Results

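Mouse embryonic stem cells that were losing the zinc finger protein Ronin were compared between day 6 and day 1.5 of tamoxifen treatment. The comparison used the 4 arrays titled knockout on those days, 2 on day 6 and 2 on day 1.5, out of 12 arrays in the series. All 18194 genes with a probe set of a single gene symbol entered it. The question is what changed in 1 cell line while the excised gene's product ran out, so that differences between the lines that were fixed in time drop out.

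The knockout cells were CreERT2; Roninflox/flox cells, in which both alleles of Thap11, the gene encoding Ronin, are flanked by loxP sites and tamoxifen activates the Cre recombinase. The 4 arrays of days 6 and 1.5 from Roninflox/flox cells without CreERT2, the controls, served for comparison. Both kinds of cells had received 0.25 µM tamoxifen, and both were split on day 4 and replated at 100000 cells per 10 cm2, that is, between the days compared. Whether the 2 arrays of a group stem from separate cultures is not stated, so the p-values reflect array-to-array spread that may be technical. Each genotype is described as a cell line with no word on further clones, and only the knockout cells carried CreERT2, so its own effect and the loss of Ronin cannot be told apart.

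Ronin is a member of the THAP family, whose zinc finger binds DNA. It recruits HCF-1, a large adaptor that joins promoter-bound factors to chromatin-modifying enzymes. In embryonic stem cells Ronin is known for binding a short motif next to the transcription start of genes for transcription, translation and mitochondrial function, and for its requirement in self-renewal.

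Values are RMA intensities on the linear scale, one probe set per gene, and changes are differences of log2 intensity, day 6 minus day 1.5. A gene was called changed at a Benjamini-Hochberg adjusted p under 0.05 from limma over all 18194 genes. Of 69 named genes called in knockout cells that had further probe sets, 22 had none of these called in the same direction. Intensities of different genes rest on different probes and are not set against each other. The 2 arrays of a group correlated at 0.998 to 0.999 over genes on the log2 scale, and array medians lay between 42.4 and 44.7. Embryonic stem cell markers were present: summed over 10 of them, intensity was 79580 and 79986 in knockout cells of day 6 and 81904 and 82423 on day 1.5, and of the 10 none rose and 1, Utf1, fell. The sum of 7 fibroblast or feeder cell markers was 274 and 272 on day 6, against 274 and 297 on day 1.5.

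The targeted gene was the check of the labels. Thap11 read 50.6 and 51.5 in knockout cells of day 6, against 327 and 354 on day 1.5. In controls it read 1305.4 and 1381.8 on day 6 and 1261.7 and 1181.3 on day 1.5. The knockout arrays of day 6 thus lay below those of day 1.5 without overlap, and those of day 1.5 already lay below every control array. The fall between the 2 days was 6.67-fold (log2 change -2.74, SE 0.08, adjusted p 1.7e-07), on top of a difference of -1.84 log2 units from controls that was present on day 1.5. Whether the probe set reads the excised part is not given in the sources used here.

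Between day 1.5 and day 6, 5490 genes changed in knockout cells, which is 30.2% of those tested. Of these, 2892 rose (15.9%) and 2598 fell (14.3%). The median size of a called change was 0.39 log2 units. At least 2-fold changes were 258 rises (1.42%) and 129 falls (0.709%), and at least 4-fold changes were 26 rises and 22 falls. The 4 arrays did not overlap between days for 64.4% of all genes, called or not (46.1% in controls). With 2 arrays a group the counts depend on how the spread is estimated: leaving out any 1 of the 4 arrays left 3964 to 4115 calls.

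The 10 largest falls were in genes for enzymes and factors of different pathways, and 7 of the 10 carry the Ronin motif next to their start. Iftap, an adaptor for intraflagellar transport, had the largest fall of all named genes, with 46.4 and 42.0 on day 6 and 472 and 468 on day 1.5. Its fall was 10.6-fold (log2 -3.41, SE 0.08, adjusted p 1.1e-07), while its 3 other probe sets, with changes of -0.20 to 0.22, were not called. Mmachc, which processes vitamin B12 into its cofactor forms, read 51.1 and 44.1 on day 6, against 393 and 424 on day 1.5. That is 8.60-fold lower (log2 -3.10, SE 0.08, adjusted p 1.1e-07), and the controls stayed between 587 and 605 on both days. Cbr4, a subunit of a reductase of mitochondrial fatty acid synthesis, read 81.0 and 90.8 on day 6, against 571 and 586 on day 1.5. It stood above the control arrays on day 1.5 and far below them on day 6.

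The other members of the 10 largest falls, unlike Cbr4, already lay below both control arrays on day 1.5. Apart from Thap11, their log2 difference from controls on that day ran from -0.14 (Gtf2h4) to -0.89 (Ube2d1). Gtf2h4, a subunit of the repair and transcription factor TFIIH, read 216 and 239 on day 6, against 1418.0 and 1455.6 on day 1.5 (log2 -2.66, on a probe set that can share probes with other transcripts). Acad8, the isobutyryl-CoA dehydrogenase of valine breakdown, read 40.6 and 51.1 on day 6, against 277 and 267 on day 1.5 (log2 -2.58). Galm, an aldose mutarotase of galactose metabolism, changed by -2.60 on a probe set that can share probes with other transcripts, and its 2 other probe sets changed by -0.77 and -0.25, of which 1 was called. Zc4h2, a zinc finger protein of motor neuron development, changed by -2.57, Nudt12, a hydrolase of NAD-capped RNA, by -2.37, and Ube2d1, a ubiquitin-conjugating enzyme, by -2.35. None of the 10 genes, Thap11 included, was called in controls, where their changes ran from -0.16 to 0.30.

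Ronin is known to bind the letters ACTACA followed, after any 2 bases, by TCCCA. RefSeq promoter windows of assembly GRCm38.p6, from 250 bases before to 50 bases after each gene's start, were searched for these letters on both strands. The 8 largest falls with an exact match are shown, because they carry the motif next to the start of the genes that lost most signal. Each stretch is written along the strand on which the motif reads forward, with the motif in capitals:
Iftap (chr2:101629011-101629063, minus strand): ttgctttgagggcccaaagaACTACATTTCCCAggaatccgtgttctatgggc
Mmachc (chr4:116708378-116708430, plus strand): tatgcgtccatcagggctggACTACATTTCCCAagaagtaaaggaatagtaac
Cbr4 (chr8:61487644-61487696, plus strand): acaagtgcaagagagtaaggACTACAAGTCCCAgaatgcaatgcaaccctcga
Gtf2h4 (chr17:35673748-35673800, minus strand): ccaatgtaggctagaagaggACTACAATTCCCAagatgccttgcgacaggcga
Acad8 (chr9:26999555-26999607, minus strand): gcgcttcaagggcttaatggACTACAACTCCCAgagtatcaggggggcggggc
Zc4h2 (chrX:95658479-95658531, plus strand): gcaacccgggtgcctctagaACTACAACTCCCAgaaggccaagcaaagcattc
Ube2d1 (chr10:71285291-71285343, minus strand): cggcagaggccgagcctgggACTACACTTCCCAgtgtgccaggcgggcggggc
Zfp317 (chr9:19621891-19621943, plus strand): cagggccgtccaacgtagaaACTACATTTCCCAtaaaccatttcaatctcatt
The centre of the motif lay 6 bases before the start in Iftap, 19 in Mmachc, 64 in Cbr4, 31 in Gtf2h4, 32 in Acad8 and 55 in Ube2d1, 4 bases after it in Zc4h2 and 174 before it in the window shown for Zfp317. In Mmachc and Zc4h2 the motif ran against the direction of the gene, and in the other 6 along it.

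The windows of Iftap, Acad8 and Zfp317 each held 2 exact matches, which faced opposite ways in Iftap and Acad8 and the same way in Zfp317. The 300-base window of Acad8, chr9:26999500-26999799 on the minus strand, is shown as an example of 2 matches that face opposite ways. The first in the direction of reading is on the other strand, so its capitals are the reverse complement of the motif.
Acad8 window: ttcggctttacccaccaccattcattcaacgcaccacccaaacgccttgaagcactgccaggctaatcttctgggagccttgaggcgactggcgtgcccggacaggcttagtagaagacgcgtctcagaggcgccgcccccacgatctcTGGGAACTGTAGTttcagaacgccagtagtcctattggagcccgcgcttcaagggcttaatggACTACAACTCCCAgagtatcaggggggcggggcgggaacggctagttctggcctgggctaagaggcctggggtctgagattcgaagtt

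Across the 10 largest falls, 7 had an exact match: Iftap, Mmachc, Cbr4, Gtf2h4, Acad8, Zc4h2 and Ube2d1. Thap11 itself had more than 1 mismatch, and Galm and Nudt12 had no window in the table. Of the 10 largest rises, 9 had a window and none held the letters with up to 1 mismatch. A match is a description of these letters and not evidence of binding.

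The share of genes with the motif followed the size of the fall. Among the 14453 genes tested that had a window, 408 held an exact match, or 2.82%, and over all windows in the table the share was 1.47%. The share was 68.4% of genes that fell at least 4-fold (13 of 19) and 37.1% of those that fell 2- to 4-fold (33 of 89). It was 6.28% of smaller falls (126 of 2007) and 1.63% of genes not called (163 of 9983). Rises of at least 2-fold had 2.09% (4 of 191), and smaller rises 3.19% (69 of 2164). Of falls of at least 2-fold together, 42.6% had an exact match, 46 of 108, with an exact 95% binomial interval of 33.1 to 52.5 that covers counting error only. The remaining 62 of these falls had no exact match, and 172 of the 408 genes with a match were called lower (42.2%, beside 14.3% of all genes), 73 higher and 163 not called. In controls 3 of the 408 were lower and 2 higher.

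**Figure D1:**
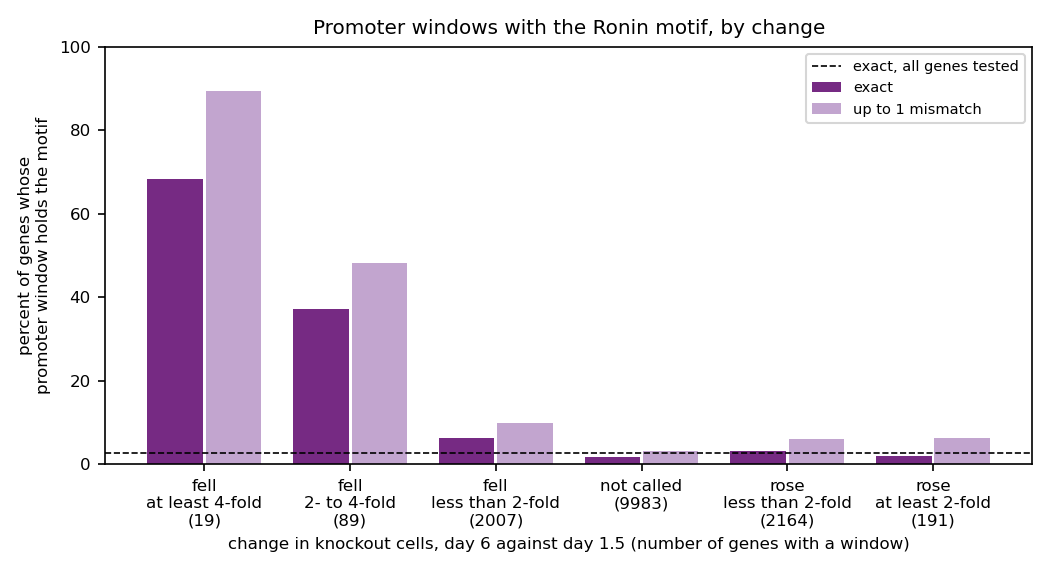
Percent of genes whose RefSeq promoter window holds the Ronin motif (y axis), by change in knockout cells between day 1.5 and day 6 (x axis, with the number of genes that have a window). Dark bars are exact matches, light bars allow up to 1 mismatch, and the dashed line marks the 2.82% of all genes tested. Exact matches reached 68.4% among falls of at least 4-fold and 2.09% among rises of at least 2-fold.

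Only windows from 250 bases before to 50 bases after the start were searched, so every match had to lie near the start. In 185 windows of genes called lower, the motif's centre lay between 234 bases before and 4 bases after the start, with a median of 73 before it. The motif ran along the gene in 123 of these windows and against it in 62. The base after TCCCA was G in 157 of 210 matches in these windows, or 74.8%. Among falls of at least 2-fold, the 46 genes with a match had covered a median 60.2% of their log2 change by day 3, and the 62 without one 51.2%, a difference that was not tested.

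**Figure D2:**
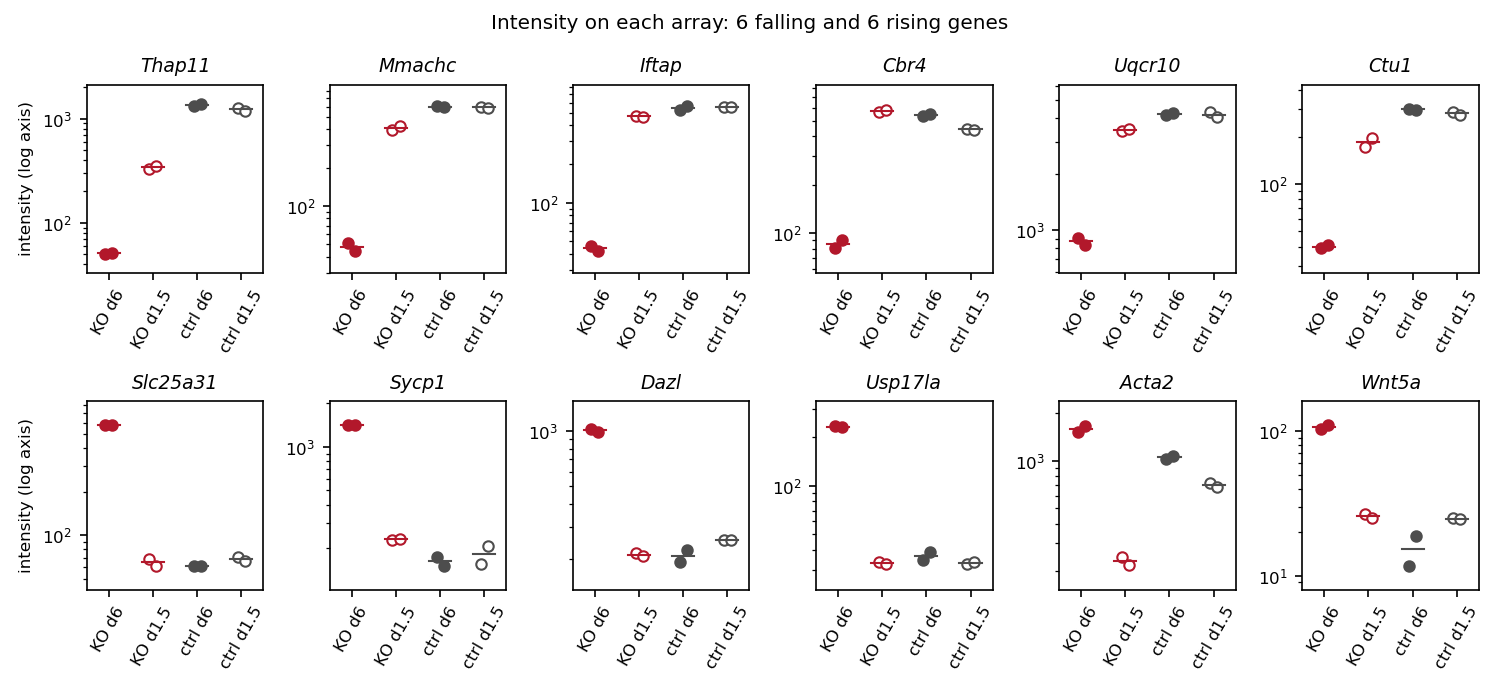
RMA intensity (log axis) on each array of knockout day 6, knockout day 1.5, control day 6 and control day 1.5 for 6 genes that fell (top) and 6 that rose (bottom); points are arrays and bars group means. Knockout arrays of day 6 lie below those of day 1.5 in the top row and above them in the bottom row, without overlap. On day 1.5 all 6 genes of the top row already differ from controls without overlap, Cbr4 above them and the others below. In the bottom row Acta2 and Dazl lie below controls on that day and Sycp1 above.

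Of 76 measured genes of the mitochondrial ribosome, 37 were lower (48.7%, beside 14.3% of all genes) and 1, Mrps6, was higher. Their median change was -0.17 log2 units, near 0 in controls (-0.03, no member called). Mrpl34 read 525 and 519.6 on day 6, against 2178.5 and 2256.5 on day 1.5 (log2 -2.09, SE 0.06, adjusted p 1.2e-07). Mrpl24 read 1099.5 and 1054.4, against 3555.4 and 3452.3 (log2 -1.70). Both windows held the exact motif, and Mrpl34's second probe set, at -0.25, was not called. Mrpl54 changed by -1.18, with a second probe set at -0.10 that was not called, and the brightest member not called was Mrpl39, at -0.09.

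Mitochondrial protein import genes were lower for 10 of 26 (38.5%, beside 14.3% of all genes) and higher for 1 (3.85%). Timm21, a subunit of the inner membrane translocase, read 196 and 193 on day 6, against 327 and 313 on day 1.5 (log2 -0.72), and Tomm40, the channel of the outer membrane, changed by -0.43. The respiratory chain did not fall as a whole. Complex I had 6 members higher and 6 lower of 35, near the background in each direction, and ATP synthase had 1 of 15 higher, Atp5e, by 0.18. In complexes III and IV, 3 of 19 were higher and 3 lower (15.8% each, near the background), and 2 of the falls were large. Uqcr10, a small subunit of complex III, read 911 and 832 on day 6, against 3402.9 and 3509.6 on day 1.5 (log2 -1.99, SE 0.07, adjusted p 2.1e-07). Cox7c, a subunit of cytochrome c oxidase, read 116 and 91.0, against 293 and 240 (log2 -1.37), and its second probe set changed by -1.68. Both windows held the exact motif.

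Of 41 cytosolic ribosomal protein genes, 1 was called, Rpl14, lower by 0.31 log2 units (log2 -0.31). Of 19 genes for tRNA thiolation and wobble modification, 7 were lower (36.8%) and 3 higher (15.8%, near the 15.9% of all genes). Ctu1, which thiolates the wobble uridine of some tRNAs, read 39.1 and 40.8 on day 6, against 172 and 196 on day 1.5 (log2 -2.20, SE 0.07, adjusted p 1.9e-07), and its window held the exact motif. Adat2, a tRNA adenosine deaminase, changed by -0.71, and Trmt10a, a tRNA methyltransferase, rose by 0.62. Of 35 aminoacyl-tRNA synthetase genes, 12 were lower (34.3%) and 5 higher (14.3%, near the 15.9% of all genes). The cytosolic leucyl-tRNA synthetase Lars read 2177.7 and 2141.0 on day 6, against 4015.5 and 4017.2 on day 1.5 (log2 -0.90), where controls of day 6, at 4976.3 and 4675.8, stood above controls of day 1.5. Translation initiation factors had 6 lower (18.8%, near the 14.3% of all genes) and 1 higher of 32, with Eif1ax at -0.51.

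Ribosome biogenesis and RNA polymerase I genes were lower for 13 of 40 (32.5%, beside 14.3% of all genes) and higher for 2 (5%). None of them was called in controls. Lyar, a nucleolar protein of pre-rRNA processing, read 2741.0 and 2819.0 on day 6, against 4120.3 and 3991.4 on day 1.5 (log2 -0.54). The RNA helicase Ddx21 changed by -0.55, while nucleophosmin (Npm1) was not called at -0.07. Core spliceosome genes were lower for 9 of 30 (30%, beside 14.3% of all genes) and higher for 3 (10%), with small changes led by Snrpa1 at -0.44. Ubiquitin-conjugating enzymes were lower for 7 of 28 (25%) and higher for 3 (10.7%), with Ube2e1 at -0.63 and Ube2o at -0.55 after Ube2d1. The second probe set of Ube2e1, at -0.38, was not called.

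**Figure D3:**
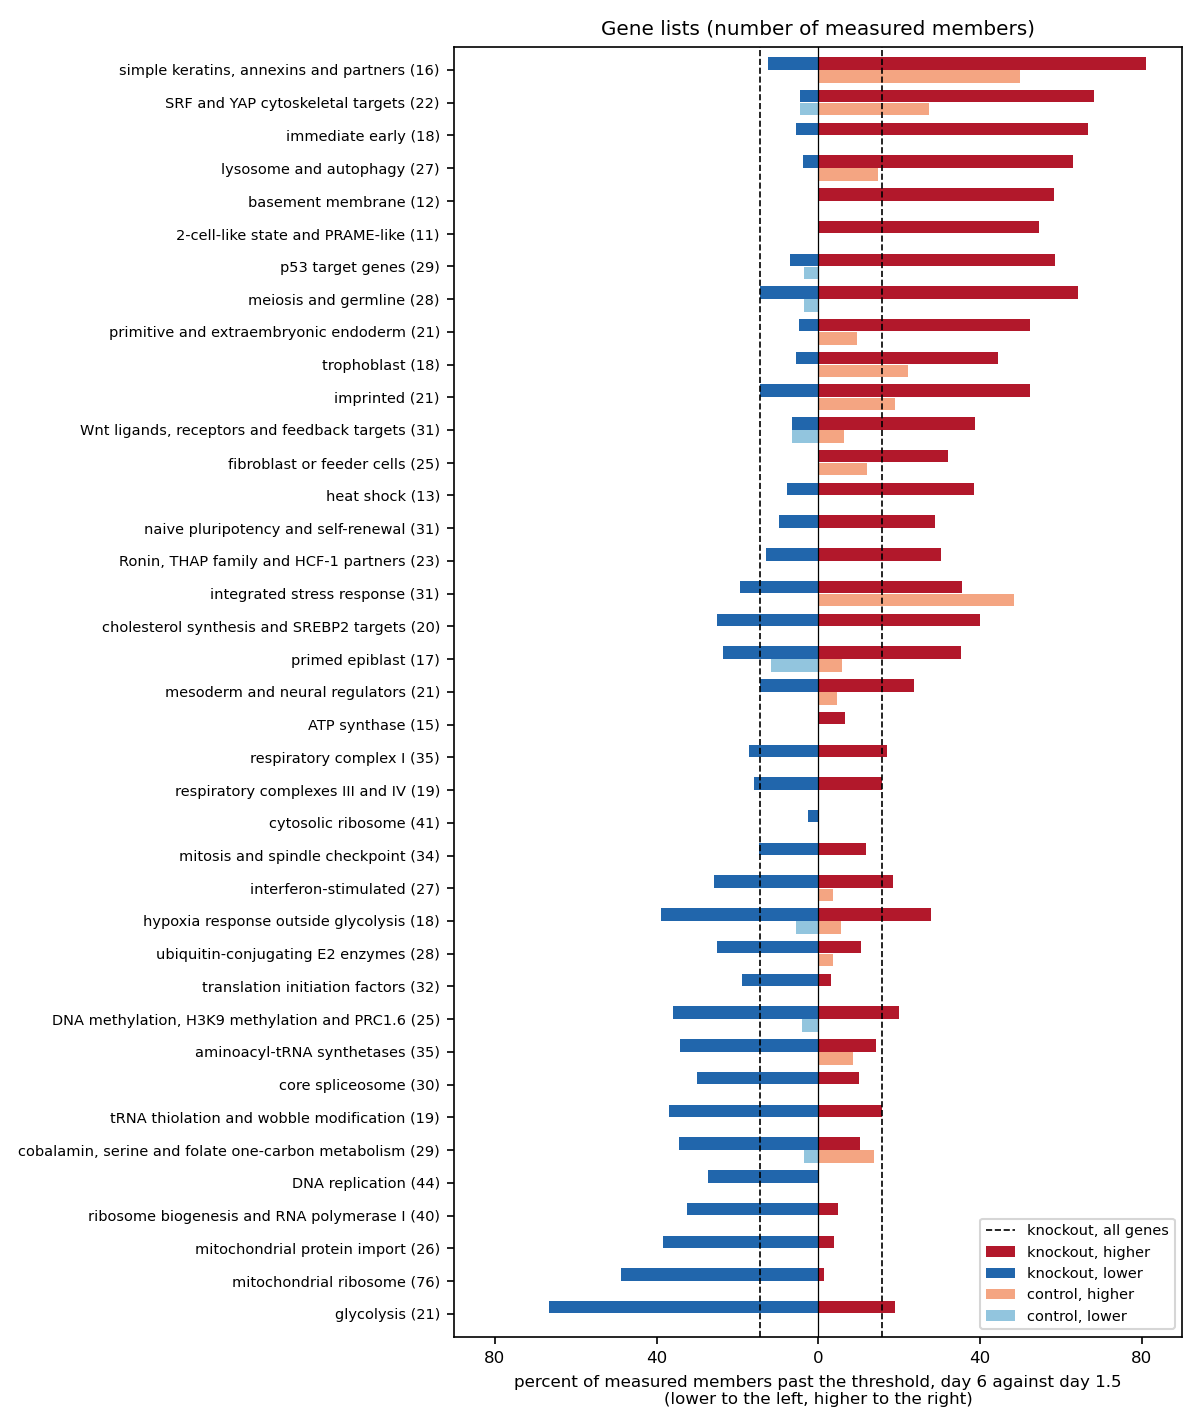
Percent of each gene list's measured members called higher (right) or lower (left) between day 1.5 and day 6, in knockout cells (dark bars) and in controls (light bars); the dashed lines mark the share of all genes in knockout cells, 15.9% higher and 14.3% lower. Glycolysis (66.7%) and the mitochondrial ribosome (48.7%) had the highest shares of lower members, simple keratins and annexins (81.2%) the highest share of higher members.

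Of 44 DNA replication genes 12 were lower (27.3%) and none was higher, though after quantile normalization 11 were lower and 3 higher. Prim1, the catalytic subunit of DNA primase, read 1530.0 and 1420.2 on day 6, against 2419.2 and 2350.8 on day 1.5 (log2 -0.69), and its window held the exact motif. Pold2, a subunit of DNA polymerase delta, changed by -0.55 and Orc3, of the origin recognition complex, by -0.48, whereas the polymerase clamp Pcna was not called (0.00). The 2 other probe sets of Orc3, at -0.29 and 0.09, were not called. Mitosis and spindle checkpoint genes stayed near the background, with 5 lower and 4 higher of 34. Among them Bub1b, the checkpoint kinase BubR1, read 857 and 823 on day 6, against 2080.8 and 2052.6 on day 1.5 (log2 -1.30, SE 0.06, adjusted p 6.9e-07). Espl1, the separase that cuts cohesin, read 4343.8 and 4321.6, against 2713.0 and 2838.1 (log2 0.64). Both windows held the exact motif, so genes with it moved in either direction within this group.

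Of the 10 largest rises 5 were genes of the meiosis and germline list. Of its 28 measured members 18 were higher (64.3%, beside 15.9% of all genes) and 4 lower (14.3%, the share of all genes). The list's median change was 1.12 in knockout cells and -0.10 in controls. Slc25a31, the ADP/ATP carrier of male germ cells, read 584 and 577 on day 6, against 69.1 and 61.5 on day 1.5. It rose 8.91-fold (log2 3.15, SE 0.09, adjusted p 1.1e-07). Sycp1, the transverse filament of the synaptonemal complex, read 1422.4 and 1427.4, against 228 and 231, a rise of 2.63 log2 units (SE 0.12, adjusted p 8.5e-07). Sycp2, of the axial element of that complex, read 131 and 127, against 24.5 and 20.7 (log2 2.52).

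Dazl, an RNA-binding protein of germ cells, read 1028.1 and 984 on day 6, against 215 and 208 on day 1.5 (log2 2.25, SE 0.07, adjusted p 2.1e-07). Taf7l, a germ cell form of a TFIID subunit, rose by 2.70 and Rbm46, an RNA-binding protein needed in meiosis, by 2.38. Rbm46 is not a member of the list. None of these 6 genes was called in controls, where Dazl read 193 and 223 on day 6 and 254.9 and 254.6 on day 1.5. The 4 lower members were Dmc1, Rec8, Ldhc and Syce2, of which the first 2 act in meiotic recombination and cohesion. The cohesin subunit Smc1b, the brightest member not called, changed by 0.06. Also outside this list, the 10 largest rises included Usp17la and Acta2, described with their own groups, and Emilin2, an extracellular matrix protein, with 186 and 154 on day 6, against 30.6 and 31.8 on day 1.5 (log2 2.44). They also included the neurofilament gene Nefm (log2 2.23), which rose by 0.73 in controls.

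The next list joins genes of the 2-cell-like state, a rare condition of stem cell cultures that resembles the early cleavage embryo, with PRAME-like genes. Of its 11 measured members 6 were higher (54.5%, beside 15.9% of all genes), among them Pramel6 and Pramel7, and none was lower. Usp17la, a deubiquitinase, read 235 and 231 on day 6, against 33.7 and 32.8 on day 1.5 (log2 2.81, SE 0.13, adjusted p 8.4e-07). Tcstv1 read 43.7 and 49.6, against 12.3 and 12.9 (log2 1.89), and Arg2, the mitochondrial arginase, rose by 1.31. On day 1.5 both of these genes read near the low end of the scale. The list fixed 19 genes, and 8 of them, among them Dux and 3 Zscan4 genes, had no probe set of a single symbol.

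Imprinted genes are expressed from the allele of 1 parent. Of 21 measured, 11 were higher (52.4%, beside 15.9% of all genes) and 3 lower (14.3%, the share of all genes). In controls 4 were higher (19%) and none lower, and the list's median change was 0.13 there and 0.34 in knockout cells. Igf2, a fetal growth factor, read 837 and 853 on day 6, against 374 and 403 on day 1.5 (log2 1.12), and it also rose in controls, by 0.52, while its second probe set, at -0.13, was not called. Plagl1, a zinc finger protein of the imprinted gene network, read 3574.6 and 3471.5, against 1120.9 and 1061.3 (log2 1.69). That probe set can share probes with other transcripts, and the brightest one without that mark changed by 0.09 and was not called (adjusted p 0.55). Meg3, a long noncoding RNA, rose by 0.66, and 8 of its 10 other probe sets were called higher as well.

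Targets of the stress factor p53 were higher for 17 of 29 (58.6%) and lower for 2, Tigar and Xpc. Their median was 0.30 in knockout cells and 0.00 in controls, where none was higher and 1 lower. Plk2, a kinase of the DNA damage response, read 1163.9 and 1129.9 on day 6, against 500.3 and 495 on day 1.5 (log2 1.20, SE 0.05, adjusted p 7.2e-07), while its second probe set, at -0.09, was not called. Ddit4l, an inhibitor of mTOR signalling, rose by 1.10 and Perp, a membrane protein of desmosomes and apoptosis, by 0.97. The gene of the cell cycle inhibitor p21, Cdkn1a, changed less. It read 1201.1 and 1229.3 on day 6, against 875 and 961 on day 1.5, and controls read 1183.1 to 1280.1, so knockout cells reached the control level from below (log2 0.41, adjusted p 0.0044). Its second probe set, at -0.06, was not called.

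Genes of the integrated stress response, which ATF4 drives when translation or mitochondria are disturbed, changed in both lines. In knockout cells 11 of 31 were higher (35.5%) and 6 lower (19.4%, beside 14.3% of all genes). In controls 15 were higher and none lower. The difference of the changes was past its threshold for 5 members in the positive direction and 12 in the negative. Ddit3, the pro-apoptotic factor CHOP, read 666 and 587 on day 6, against 214 and 222 on day 1.5 (log2 1.52), and rose by 0.63 in controls. Its second probe set, at 0.30, was not called. Atf5 rose by 1.01 in knockout cells and by 0.55 in controls. Pck2, the mitochondrial PEP carboxykinase, went the opposite ways: it read 555 and 571 in knockout cells of day 6, against 991 and 1115.0 on day 1.5 (log2 -0.90). In controls it read 1611.4 and 1671.1 on day 6, against 1175.0 and 1134.1 on day 1.5 (log2 0.51). The difference of the 2 changes was -1.41 (adjusted p 4.6e-05). The 6 lower members in knockout cells were Pck2, Shmt2, Mthfd2, Gpt2, Psph and Psat1, enzymes of serine, glycine and mitochondrial one-carbon metabolism apart from Pck2 and Gpt2.

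The cobalamin, serine and folate list shares Shmt2, Mthfd2, Psph and Psat1 with the previous one. Of its 29 measured members 10 were lower (34.5%, beside 14.3% of all genes) and 3 higher (10.3%, beside 15.9%). Shmt2, the mitochondrial serine hydroxymethyltransferase, read 1433.4 and 1441.5 on day 6, against 2581.3 and 2628.8 on day 1.5 (log2 -0.86), and its window held the exact motif. Lmbrd1, the lysosomal exporter of vitamin B12, rose by 0.81 while Mmachc, the next protein on that route, fell by 3.10 on the log2 scale.

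Glycolysis genes were lower for 14 of 21 (66.7%) and higher for 4, and none was called in controls. The enzymes of the pathway itself made up most of the falls: Tpi1, triosephosphate isomerase, read 3667.9 and 3717.0 on day 6, against 5907.2 and 6003.9 on day 1.5 (log2 -0.69, SE 0.05, adjusted p 1.8e-05). The other lower members were Slc16a3, Pfkp, Slc16a1, Ldha, Aldoc, Pfkm, Aldoa, Hk1, Pgk1, Ldhb, Pgam1, Pfkl and Pkm. The 4 higher members were Slc2a1, Slc2a3, Hk2 and Pfkfb3, that is, glucose transporters, a hexokinase and the enzyme that makes the activator of phosphofructokinase. Pfkfb3 read 142 and 133, against 46.9 and 51.7 (log2 1.48), and its second probe set was not called at -0.05. Gapdh was not called (-0.07). Of 18 hypoxia response genes outside glycolysis, 7 were lower (38.9%, beside 14.3% of all genes) and 5 higher (27.8%, beside 15.9%). Pdk1, the kinase that blocks pyruvate dehydrogenase, changed by -0.88 and the prolyl hydroxylase P4ha2 by 0.57.

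Lysosome and autophagy genes were higher for 17 of 27 (63.0%) and lower for 1. In controls 4 were higher. Hexa, a subunit of beta-hexosaminidase, read 4078.2 and 4083.8 on day 6, against 2151.0 and 2226.7 on day 1.5 (log2 0.90), and rose by 0.31 in controls. Ctsd, the protease cathepsin D, rose by 0.73. The lower member was Gabarapl1, a protein of autophagosome membranes, at -0.76.

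The pluripotency factor Pou5f1 read 12562 and 12601 on day 6, against 11421 and 11406 on day 1.5 (log2 0.14, adjusted p 0.05, just outside the threshold), and Nanog and Sox2 had changes of 0.02 and -0.09 (adjusted p 0.86 and 0.47). Of 31 naive pluripotency genes 9 were higher (29.0%, beside 15.9% of all genes) and 3 lower (9.68%, beside 14.3%). Gdf3, a TGF-beta ligand, rose by 0.75, Nr5a2, a nuclear receptor that acts on Pou5f1, by 0.63, and Sox15 fell by 0.60 on the log2 scale. Primed epiblast genes were higher for 6 of 17 (35.3%) and lower for 4 (23.5%). Fgf5 read 27.1 and 32.6 on day 6, against 13.3 and 13.1 on day 1.5 (log2 1.17), near the low end of the scale, and its second probe set was not called. Lefty1, an inhibitor of Nodal, read 926 and 943, against 1525.3 and 1601.9 (log2 -0.74). The list of mesoderm and neural regulators had 5 higher (23.8%) and 3 lower (14.3%, the share of all genes) of 21. Its member Bmp4, a growth factor, read 402 and 365 on day 6, against 915 and 945 on day 1.5 (log2 -1.28, SE 0.07, adjusted p 1.9e-06).

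Genes of the actin cytoskeleton controlled by SRF and YAP were higher for 15 of 22 (68.2%) and lower for 1. In controls 6 were higher and 1 lower. Tagln, the actin-bundling protein transgelin, read 1631.5 and 1569.6 on day 6, against 377 and 396 on day 1.5 (log2 2.05, SE 0.06, adjusted p 1.9e-07). In controls it rose as well, with 1158.2 and 1269.5 on day 6, against 760.2 and 745 on day 1.5 (log2 0.69). Knockout cells of day 1.5 thus stood below the controls of that day, and knockout cells of day 6 above those of day 6. Acta1, skeletal muscle actin, rose by 2.23, and by 0.74 in controls. Acta2, smooth muscle actin, read 1534.0 and 1668.5 on day 6, against 244 and 219 on day 1.5 (log2 2.79), with controls at 1034.0 and 1076.1 on day 6 and 726.0 and 684 on day 1.5. Its 2 other probe sets changed by 0.10 and 0.15 and were not called, so this rise rests on 1 probe set that can share probes with other transcripts. Actb was not called (0.09).

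Simple keratins, annexins and partners, the epithelial filaments and membrane-binding proteins, were higher for 13 of 16 (81.2%) and lower for 2, Lgals1 and Ezr. In controls 8 were higher. Krt8 read 3789.0 and 3867.1 on day 6, against 1381.7 and 1437.0 on day 1.5 (log2 1.44, SE 0.06, adjusted p 6.4e-07). Controls read 3962.2 and 4077.7 on day 6 and 2175.3 and 2157.3 on day 1.5 (log2 0.89). On day 6 the 2 lines therefore stood near each other, and the larger change in knockout cells came with a lower start. Over the list, the median level of knockout over control cells was 0.03 log2 units on day 6 and -0.28 on day 1.5.

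Of 21 primitive and extraembryonic endoderm genes, 11 were higher (52.4%) and 1, Amn, lower. The median of knockout over control was -0.05 log2 units on day 6 and -0.31 on day 1.5. Fst, the activin antagonist follistatin, read 323 and 349 on day 6, against 81.1 and 72.5 on day 1.5 (log2 2.13, SE 0.13, adjusted p 5.6e-06). Foxa2, a forkhead factor of endoderm, read 113 and 110.2, against 47.0 and 48.6 (log2 1.22), and Lrp2, the endocytic receptor megalin, rose by 1.07. On day 6 these 3 genes stood above the controls of that day, where Fst read 97.5 and 130.5. Of 7 defining markers Foxa2, Sox7 (log2 0.90) and Sox17 (log2 0.42) were higher, and Gata4, Gata6, Pdgfra and Dab2 were not called. The summed intensity of 7 primitive endoderm markers was 673 and 650.2 in knockout cells of day 6, against 452 and 486 on day 1.5. In controls it was 772 and 765 on day 6 and 678 and 671 on day 1.5, so knockout cells lay below controls on both days. The part of such cells in the result was not tested. Fewer cells of a type and less RNA per cell cannot be told apart in RNA of whole cultures.

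Basement membrane genes, the sheet that such endoderm lays down, were higher for 7 of 12 (58.3%, beside 15.9% of all genes). No member was lower, and none was called in controls. Col4a1 read 2078.5 and 2078.8 on day 6, against 988 and 998 on day 1.5 (log2 1.07), with controls at 1729.6 and 1845.1 on day 6 and 1708.6 and 1698.5 on day 1.5. Its partner Col4a2 rose by 1.11 and nidogen (Nid1) by 0.82, and Fn1 was not called (0.13). Trophoblast genes were higher for 8 of 18 (44.4%, beside 15.9% of all genes) and lower for 1, and 4 of the 8 were keratins. In controls 4 members were higher (22.2%) and none lower. The difference between the lines was called for 3 members in the positive direction and 1 in the negative. Gata3, a trophoblast factor, read 80.5 and 127 in knockout cells of day 6, against 36.2 and 44.0 on day 1.5 (log2 1.34, SE 0.25, adjusted p 0.0034). Its difference between the lines was not called (adjusted p 0.051). The sum of 6 trophoblast markers was 553 and 576 on day 6, against 329 and 382 on day 1.5, with controls at 396 and 413 on day 6 and 335 and 320.3 on day 1.5. Fibroblast or feeder cell genes were higher for 8 of 25 (32%) and lower for none, led by Acta2, Tagln and Timp3. In controls 3 were higher and none lower. The list's median change was 0.20 log2 units in knockout cells and 0.18 in controls, so as a list it moved alike in both lines. None of the 7 defining fibroblast markers was called in knockout cells.

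Wnt ligands, receptors and feedback targets were higher for 12 of 31 (38.7%) and lower for 2. The ligand Wnt5a read 104 and 111 on day 6, against 26.9 and 24.9 on day 1.5 (log2 2.05, SE 0.24, adjusted p 0.0002), and 1 of its 3 other probe sets was called higher. In controls it read 11.7 and 18.96 on day 6, against 25.1 and 24.5 on day 1.5 (log2 -0.74, adjusted p 0.18). Wls, which carries Wnt proteins to the cell surface, read 191 and 194, against 65.4 and 57.1 (log2 1.65), and rose by 0.65 in controls. The higher members included 6 receptors of the Fzd family (Fzd1, Fzd3, Fzd5, Fzd6, Fzd7 and Fzd8), while the feedback target Axin2 and the co-receptor Lrp5 were lower. Immediate early genes were higher for 12 of 18 (66.7%, beside 15.9% of all genes) and lower for 1, and none was called in controls. Jun read 506 and 496 on day 6, against 224 and 236 on day 1.5 (log2 1.12), with controls at 314 to 359, and Klf6 rose by 1.00.

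By day 3, rises had covered less of their change than falls, a difference that was not tested. Knockout cells had covered a median 15.8% of the log2 change of the 258 rises of at least 2-fold by then. For 74 of these genes the day 3 level lay on the far side of the day 1.5 level, and for none beyond that of day 6. Falls of at least 2-fold had covered a median 56.2% by day 3, with 4 of 129 on the far side of day 1.5 and 6 beyond day 6. Bub1b had covered 55.7% and Iftap 41.3%, but Dazl 13.8%, Plk2 10.0% and Plagl1 -1.66%. Col4a1 (-109%) and Krt8 (-20.7%) had lower levels on day 3 than on day 1.5 and higher ones on day 6. Bmp4, which fell, had a lower level on day 3 than on day 6. Krt8, Col4a1 and Bmp4 also dipped on day 3 in controls, and Tagln dipped in controls only. Day 3 was the last day before the split, and arrays of day 3 had the highest medians.

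**Figure D4:**
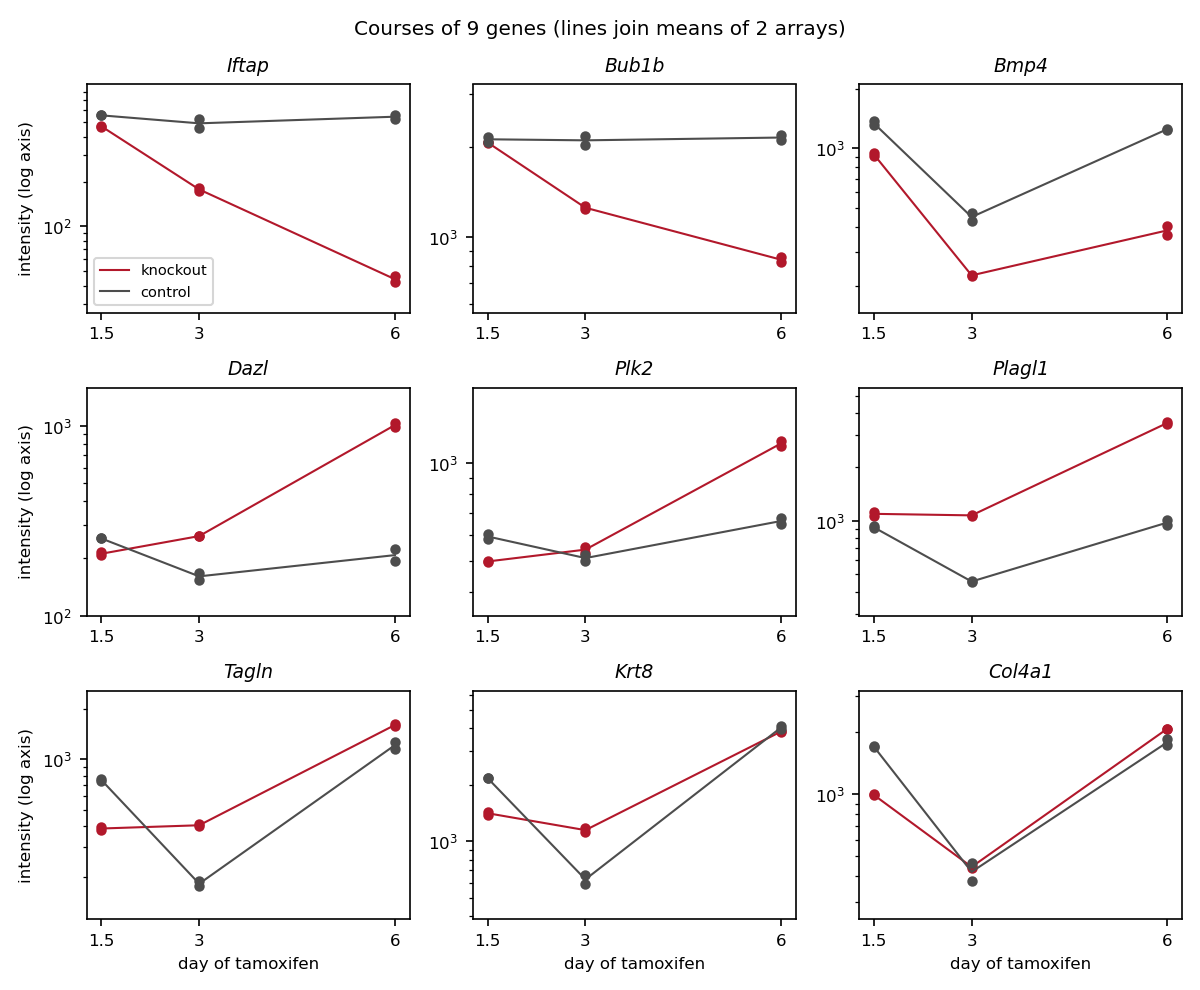
RMA intensity (log axis) of 9 genes in knockout cells (red) and controls (grey) on days 1.5, 3 and 6 of tamoxifen; points are arrays and lines join group means. In knockout cells Iftap and Bub1b are lower on each later day, and Dazl and Plk2 rise mainly after day 3. Krt8, Col4a1 and Bmp4 have lower levels on day 3 than on day 1.5 in both lines, Tagln in controls only.

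The same days changed far less in controls. There 285 genes were called (1.57%), 199 higher (1.09%) and 86 lower (0.473%), and at least 2-fold changes were 4 rises (0.022%) and 1 fall (0.0055%). This count depends on the spread shared over all 12 arrays: with the 4 control arrays alone none was called, against 4741 with the 4 knockout arrays alone, and unadjusted p was under 0.05 for 2486 control genes. The largest control rise was Efemp1, an extracellular matrix protein, by 1.42, beside 1.38 in knockout cells. The largest control fall was Ceacam20, by 1.21 on the log2 scale (log2 -1.21), which was -0.43 and not called in knockout cells. Among the rest of the 5 largest control changes in each direction, Prss23, Sema3c and Pmp22 rose and Fam184b, Slc38a5 and Snhg3 fell in both lines, Pla2g7 fell in controls and rose by 0.74 in knockout cells, and Csn3 was called in controls only, at 1.13, with a difference between the lines of -0.82.

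**Figure D5:**
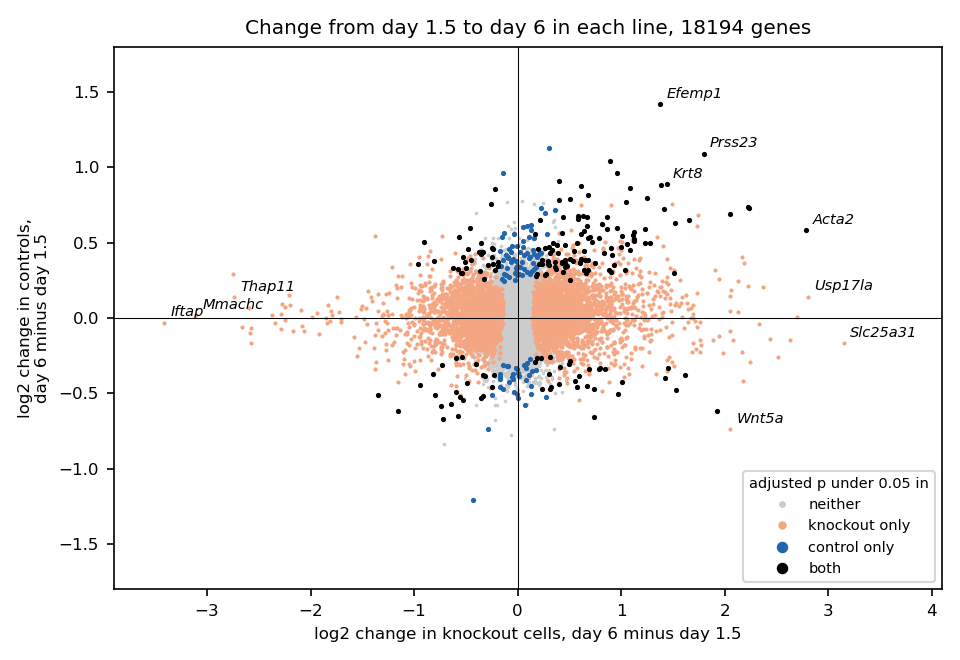
Log2 change, day 6 minus day 1.5, of each gene in knockout cells (x axis) and in controls (y axis), coloured by the line in which the change was called. Knockout changes span -3.41 to 3.15 and most of these genes lie near 0 in controls, whereas Efemp1, Prss23, Krt8 and Acta2 were higher in both lines.

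The 2 comparisons share no arrays. Of the 2892 genes that rose in knockout cells, 104 also rose in controls, which is 3.60% of the knockout list and 52.3% of the control list, and 29 fell there. Of the 2598 that fell, 23 also fell in controls, 0.885% of the knockout list and 26.7% of the control list, and 32 rose. Across genes, which are not independent replicates, the 2 sets of changes had a Pearson r of 0.10. The difference of the changes itself passed the threshold for 3516 genes (19.3%), 1695 with a higher change in knockout cells (9.32%) and 1821 with a lower one (10.0%). At least 2-fold differences were 237 higher (1.3%) and 153 lower (0.841%). Of knockout rises 54.4% and of knockout falls 62.2% showed such a difference. The largest positive differences were Slc25a31 (3.32), Wnt5a (2.79), Sycp1 (2.78), Sycp2 (2.77) and Taf7l (2.69). The largest negative ones were Iftap (-3.38), Mmachc (-3.13), Cbr4 (-3.05), Thap11 (-2.87) and Galm (-2.67).

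Levels of the 2 lines on each day are given as a description, since the knockout arrays compared here also chose these genes. Among all genes tested, both knockout arrays lay above both control arrays for 32.7% and below for 32.4% on day 6, and for 28% and 25% on day 1.5. Among rises of at least 2-fold, both knockout arrays lay above both control arrays for 246 of 258 genes on day 6, with a median of 1.17 log2 units. On day 1.5 they lay above for 72 and below for 107, with a median of -0.06. Among falls of at least 2-fold, both lay below both controls for 127 of 129 on day 6, with a median of -1.41. On day 1.5 they lay below for 73 and above for 32, with a median of -0.12. Germline genes stood level with controls on day 1.5 (median -0.02) and above on day 6 (median 1.05), glycolysis genes level on day 1.5 (-0.01) and below on day 6 (-0.30), and p53 targets level on day 1.5 (-0.03) and above on day 6 (0.27).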

How the data were processed

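RNA of mouse embryonic stem cells was measured on Affymetrix mouse arrays. Each deposited value is a linear-scale intensity of a probe set. The submitters' processing notes name RMA without a version. Log2 values had been assumed in the design, but the deposited ones were not log2. RMA corrects background, quantile-normalizes the arrays and summarises each probe set. The log2 was taken here before any test, with no filter on dim genes.

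The platform annotation gave 34958 of the 45101 probe sets a single gene symbol, 932 several and 9211 none, and 34754 matched a RefSeq gene table by gene ID. Of each gene's probe sets the brightest over the 12 arrays was used, which gave 18194 genes. For 3783 of them the suffix (s, x or a) marks probes that match several transcripts. The test was limma 3.58.1 (R 4.3.3), fitted to all 12 arrays with 1 mean for each group, eBayes (6 residual and 3.04 prior degrees of freedom) and Benjamini-Hochberg adjusted p under 0.05. The controls' change and the difference of the changes came from the same fit. The test was checked on simulated data. The number of arrays limits the precision.

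The comparison, the 39 gene lists and the rule for named genes were chosen with earlier results of these data known, so lists are described by counts and medians without a test. The rule names the 10 largest rises and falls whose arrays do not overlap, 3 called members and the brightest member not called of each list, 5 genes per direction for the difference and for controls, and always Thap11, Mmachc, Cdkn1a, Hcfc1, Nanog, Pou5f1 and Sox2. Clone and model numbers were left out. Gpi1 and H19 were dropped because their synonyms point to unrelated genes. Other genes are named where all called members of a list or the cell type markers are given, or for their promoter.

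Replicate numbers did not pair the arrays: deviations of same-numbered arrays from their group means correlated at -0.06 to 0.17 between groups, at 0.04 between knockout days 6 and 1.5. Alternatives were a replicate block, only the arrays compared, trend and robust eBayes, array weights, the dimmest 40% of genes left out, the mean of all probe sets, probe sets without a suffix, median centring, quantile normalization, leaving out each array and, added after seeing the data, up to 1 mismatch in the motif. Promoter sequences are those of RefSeq for GRCm38.p6. Figures were drawn with matplotlib 3.10.9.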

Additional observations from a re-analysis of the deposited data

Results flagged for a closer look

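For 114 of the 174 named genes, the change between day 1.5 and day 6 differed between the lines by the test of that difference itself (limma, adjusted p under 0.05). Across all genes 19.3% did so, but the named genes were chosen in part for this difference or for their knockout change, so nothing is read from the share. The call was lost in at least 1 alternative for 22 of the 114. Out of 16 or 17 alternatives, it was lost in 11 for Eif4a2, 9 for Ndufb7, 7 each for Cdkn1a, Ceacam20 and Vars2, and 6 each for Fzd6, Ier5, Krt18, P4ha2 and Timm13. It was lost in 5 each for Egln3 and Prss23, 4 for Max, 3 each for Csn3 and Slc16a3, and 1 each for Acta2, Bnip3, Ddit3, Galm, Map2, Orc3 and Plagl1. Each value here is the knockout change minus the control change, in log2 units.

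Among germline and 2-cell-like genes the difference was 3.32 for Slc25a31, 2.78 for Sycp1, 2.77 for Sycp2, 2.69 for Taf7l, 2.67 for Usp17la, 2.54 for Dazl, 2.17 for Rbm46, 2.03 for Tcstv1 and 1.22 for Arg2. Other large rises had 2.58 for Emilin2 and 1.50 for Nefm.

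Among the largest falls it was -3.38 for Iftap, -3.13 for Mmachc, -3.05 for Cbr4, -2.87 for Thap11, -2.67 for Galm, -2.60 for Gtf2h4, -2.51 for Acad8, -2.41 for Zc4h2, -2.38 for Nudt12 and -2.31 for Ube2d1. The ubiquitin-conjugating enzymes Ube2e1 and Ube2o had -0.72 and -0.67.

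In mitochondria it was -2.03 for Mrpl34, -1.70 for Mrpl24, -1.11 for Mrpl54, -2.0 for Uqcr10, -1.07 for Cox7c, -0.60 for Ndufa3, -0.62 for Timm21, -0.38 for Tomm40 and -0.32 for Timm13, whereas Ndufb7 had 0.25. In translation it was -2.29 for Ctu1, -1.13 for Lars, -0.78 for Adat2, -0.55 for Eif1ax, -0.53 for Eif2b3, -0.53 for Lyar, -0.40 for Vars2 and -0.33 for Rpl14. Trmt10a and Eif4a2 had positive differences there, 0.77 and 0.29.

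For DNA replication and mitosis it was -1.32 for Bub1b, -0.63 for Prim1, -0.54 for Orc3, -0.46 for Pold2 and 0.62 for Espl1. For p53 targets it was 1.05 for Plk2, 1.02 for Ddit4l, 0.83 for Perp and 0.45 for Cdkn1a. In stress and metabolism it was 0.89 for Ddit3, 0.47 for Atf5, -1.41 for Pck2, -0.32 for Asns, -1.10 for Shmt2, 0.72 for Lmbrd1, 1.44 for Pfkfb3, -0.63 for Tpi1 and -0.77 for Slc16a3. Hypoxia response genes had -0.85 for Pdk1, -0.58 for Bnip3, 0.42 for P4ha2 and 0.38 for Egln3. Sterol, lysosome and heat shock genes had 0.83 for Hsd17b7, -0.50 for Tm7sf2, 0.65 for Cyp51, 0.59 for Hexa, -0.77 for Gabarapl1, 0.58 for Ctsd and -0.71 for Bag3.

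In pluripotency and lineage lists it was 0.84 for Gdf3, 0.94 for Nr5a2, -0.57 for Sox15, 1.24 for Fgf5, -0.63 for Lefty1, 1.88 for Fst, 1.35 for Foxa2, 0.70 for Lrp2, -1.18 for Bmp4, 1.21 for Sox1 and 0.91 for Map2. Basement membrane genes had 1.00 for Col4a1, 0.98 for Nid1 and 0.89 for Col4a2. Cytoskeletal and related genes had 2.21 for Acta2, 1.49 for Acta1, 1.36 for Tagln, 1.4 for Timp3, 0.69 for Anxa3, 0.55 for Krt8 and 0.46 for Krt18. Immediate early genes had 1.01 for Jun, 0.82 for Klf6 and 0.60 for Ier5.

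Wnt genes had 2.79 for Wnt5a, 1.01 for Wls and 0.55 for Fzd6, and imprinted genes 1.6 for Plagl1, 1.00 for Meg3 and 0.60 for Igf2. Interferon-stimulated genes had -1.52 for Ifit2, -0.91 for Bst2 and 0.60 for B2m. Chromatin and Ronin-related genes had -0.57 for Max, -0.51 for Dnmt3a, -0.48 for Suv39h2 and 0.46 for Mycn. Of the genes with the largest control changes, Pla2g7 had 1.4, Ceacam20 0.78, Prss23 0.71, Csn3 -0.82 and Snhg3 -0.54.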

How the results depend on the processing

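The count of genes changed in knockout cells, 5490, was 3964 to 4115 without 1 of its 4 arrays and 4452 to 6335 under the other alternatives, with a replicate block at 5359. The difference of the changes, 3516 genes, was 2546 to 2801 without 1 of 8 arrays and 2783 to 4685 otherwise, with the block at 3373; the block moved the control count to 210 and changed 7 calls of named genes. Median centring put 42.9% of these differences higher, against 48.2% as reported. The control count, 285, was 187 with the mean of all probe sets, 894 with trend and robust eBayes, 660 without the dimmest 40% of genes and 0 with only the arrays compared, where limma left 2486 genes at an unadjusted p under 0.05. It was 18 without control day 6 replicate 2, 28 without control day 1.5 replicate 1, 40 without control day 1.5 replicate 2 and 51 without control day 6 replicate 1. The cause was not tested, apart from fewer arrays or genes in the fit. With up to 1 mismatch, the motif share of falls of at least 2-fold was 55.6%, against 42.6%. On probe sets without a suffix the sign reversed for "Elp2, difference between the lines", at -0.41, and "Prss23, difference between the lines", at -0.0218, and the knockout rises of Acta2 (0.10), Plagl1 (0.09) and Prss23 (0.04) were not called. The knockout calls of Atp5e, Uqcrfs1, Wars2, Taf1d, Snrpf and Hspa1a were lost when some single arrays were left out, and those of Cdkn1a (0.17) and Fam184b (-0.13) with the mean of all probe sets. No list named in the text changed its prevailing direction of calls under median centring or quantile normalization, except that complex I and complexes III and IV, evenly split as reported, tipped, and that mitosis genes, at 4 higher and 5 lower as reported, were at 5 and 5 after quantile normalization.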

Other observations

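Among all genes 15.9% were higher and 14.3% lower in knockout cells of day 6 against day 1.5. Cholesterol synthesis and SREBP2 target genes were higher for 8 of 20 (40%) and lower for 5 (25%) in knockout cells of day 6 against day 1.5, and none was called in controls. Hsd17b7, a late enzyme of the pathway, read 298 and 297 on day 6, against 185 and 196 on day 1.5 (log2 0.64). That probe set can share probes with other transcripts, and 1 of its 3 other probe sets was called higher. Cyp51, lanosterol demethylase, read 656 and 659.8, against 449 and 446 (log2 0.56), and its 2 other probe sets, at 0.21 and 0.48, were not called. Tm7sf2, a sterol reductase, changed by -0.58. Interferon-stimulated genes were lower for 7 of 27 (25.9%) and higher for 5 (18.5%, near the share of all genes). Ifit2, which binds viral RNA in this response, read 29.0 and 21.9 on day 6, against 65.4 and 68.4 on day 1.5 (log2 -1.41), and its promoter window held the exact Ronin motif. Bst2, a membrane protein that tethers viruses, changed by -0.80, and B2m, the light chain of MHC class I, rose by 0.76. Heat shock genes were higher for 5 of 13 (38.5%) and lower for 1, with the endoplasmic reticulum chaperone Hspa5 at 0.33, and the co-chaperone Bag3 at -0.45.

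The list for DNA methylation, H3K9 methylation and the repressor complex PRC1.6 covers genes of which many silence germline genes in stem cells. Of its 25 measured members 9 were lower (36%) and 5 higher (20%), namely E2f6, Atf7ip, Mga, Dnmt3l and Tet2. Whether these changes bear on the germline genes was not tested. Dnmt3a, a de novo DNA methyltransferase, read 781 and 827 on day 6, against 1184.4 and 1143.7 on day 1.5 (log2 -0.53), and all 4 of its other probe sets were called lower. Max, a subunit of PRC1.6, read 192 and 200.2, against 275 and 277 (log2 -0.49), and its promoter window held the exact motif. Suv39h2, an H3K9 methyltransferase, changed by -0.40, and the corepressor Trim28 was not called (0.12). Among Ronin's relatives and partners, 7 of 23 were higher (30.4%) and 3 lower (13%, near the share of all genes). The partner Hcfc1, which encodes HCF-1, read 2402.3 and 2192.6 on day 6, against 2367.3 and 2234.2 on day 1.5, a change of -0.003 that was not called (adjusted p 0.98). Mycn rose by 0.44 and Thap2, another THAP protein, by 0.52.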
